A study of Mus musculus with 12 samples.

Results

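The array labelled WT epithalamus was compared with the 2 arrays labelled WT thalamus on the same chip, gene by gene. The comparison takes in 3 of the 12 arrays of the series and 9812 genes, those with a probe detected on the epithalamus array or on both thalamus arrays. With a single epithalamus array there is no replicate of that region and no test, so a gene is described as higher or lower only where its log2 intensity differed by 1 or more (2-fold) in the same direction from each thalamus array. The size printed is the smaller of those differences, in log2, unless a sentence says otherwise. By this rule 93 genes were higher on the epithalamus array (0.948% of those compared) and 68 were lower (0.693%), 161 in all (1.64%).

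All arrays hold RNA of microdissected brain tissue of CD1 mouse embryos at E12.5 (embryonic day), hybridised to Illumina bead arrays. Chip 1 carries wild-type (WT) thalamus replicates 1 and 2, the epithalamus array, 1 array of WT prethalamus and replicates 1 and 2 of thalamus labelled as a knockout of the homeobox gene Gbx2 (KO, which stands for the label throughout). The Gbx2 probe was still detected on those arrays, at a log2 intensity of 13.04 and 12.77 beside 13.73 and 13.30 on the WT thalamus arrays. On chip 2 lie replicates 3, 4 and 5 of WT and of KO thalamus, and the submitters set aside both arrays numbered 5 as outliers. The region was taken from each array's description, because the tissue field reads thalamus throughout. The labels give neither the kind of Gbx2 allele nor whether an array holds 1 embryo or several, so the spread between arrays may be partly technical.

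The epithalamus is the dorsal cap of the caudal diencephalon. Its neural part forms the habenula, a relay from the forebrain to midbrain monoamine centres, and its midline evagination forms the pineal gland. The roof plate above it is a source of BMP and Wnt ligands. The thalamus lies beneath it and the pretectum behind it. Progenitors of the main, caudal part of the thalamus express the basic helix-loop-helix gene Olig3 and give rise to glutamatergic neurons that switch on Gbx2. A small rostral part next to the zona limitans makes GABAergic neurons through Tal and Gata genes. The title of the series names Gbx2 as a gene that holds habenular features back in the thalamus, which makes the epithalamus the reference region for such features.

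Of the 4 genes given as markers, 3 were higher on the epithalamus array and Gbx2 was lower. Msx1, a homeobox gene active in the roof plate, read a log2 intensity of 7.20 on the epithalamus array, where it was detected, against 4.81 and 4.89 on WT thalamus replicates 1 and 2, where it was not. Smoc1, a secreted calcium-binding matrix protein, read 9.50 against 5.93 and 5.63. Nr4a2, a nuclear receptor gene of habenular and dopaminergic neurons, read 9.66 against 8.05 and 7.19. Gbx2 read 6.35 against 13.73 and 13.30, the widest difference of all genes compared (-6.96). In tissue homogenates such as these, fewer cells of a type and less RNA per cell cannot be told apart.

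Most markers of habenular neurons were either not detected or short of the threshold. Of 16 list members with a named probe, Pou4f1, Tac2, Chrnb4, Chrnb3, Gpr151 and Slc17a7 were detected on none of the epithalamus, thalamus and prethalamus arrays. They therefore give no comparison between the regions. Among the 10 compared, 6 lay above both thalamus arrays by any amount, beside 29.7% of all genes, and 2 lay below both. Of those above, Isl1, Irx1, Tac1 and Chrna3 were not detected on both thalamus arrays, so they entered through the epithalamus array. The count above both is therefore partly set by the filter. Of the 10, Nr4a2 was the only one past the threshold upwards, and 2 were past it downwards. The name epithalamus array is used below for the label, and no cell composition is read from it.

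Promoter sequences are shown for 4 genes on which the comparison turns: the neighbouring genes Tfap2d and Tfap2b, the midline marker Msx1, and Gbx2. Tfap2d and Tfap2b were both higher and, with Meis1, differed most from the thalamus arrays among the pretectal and midbrain genes compared. The sequences are the 250 bases before the outermost transcript start in RefSeq's table of build GRCm38.p6, 5′ to 3′ on the gene's strand. Capitals mark the homeodomain core TAAT on either strand, with overlapping matches counted.
Tfap2d upstream, chr1:19102772-19103021, plus strand: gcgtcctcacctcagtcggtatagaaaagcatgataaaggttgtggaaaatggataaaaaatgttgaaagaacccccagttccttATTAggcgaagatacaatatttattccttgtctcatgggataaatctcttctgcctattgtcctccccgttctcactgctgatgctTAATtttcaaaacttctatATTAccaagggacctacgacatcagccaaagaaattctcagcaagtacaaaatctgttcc
Tfap2b upstream, chr1:19211804-19212053, plus strand: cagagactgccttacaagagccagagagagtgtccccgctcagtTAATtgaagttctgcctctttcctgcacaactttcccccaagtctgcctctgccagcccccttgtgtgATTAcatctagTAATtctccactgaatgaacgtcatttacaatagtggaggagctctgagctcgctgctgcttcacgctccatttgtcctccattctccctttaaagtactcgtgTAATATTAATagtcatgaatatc
Msx1 upstream, chr5:37824586-37824835, minus strand: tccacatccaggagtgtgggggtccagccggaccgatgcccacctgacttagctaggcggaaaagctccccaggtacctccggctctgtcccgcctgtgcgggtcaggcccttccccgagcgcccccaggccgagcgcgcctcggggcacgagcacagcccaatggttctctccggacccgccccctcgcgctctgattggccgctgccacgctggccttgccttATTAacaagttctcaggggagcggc
Gbx2 upstream, chr1:89931177-89931426, minus strand: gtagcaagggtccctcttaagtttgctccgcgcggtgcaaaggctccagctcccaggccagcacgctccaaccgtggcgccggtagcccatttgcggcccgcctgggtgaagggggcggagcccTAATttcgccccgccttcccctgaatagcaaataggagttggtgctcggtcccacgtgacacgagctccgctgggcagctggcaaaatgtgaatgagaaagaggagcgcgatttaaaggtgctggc
The Tfap2b window held 6 such cores, that of Tfap2d 3, and those of Msx1 and Gbx2 1 each. The core is frequent, with at least 1 match in 54.9% of 32851 such windows in the table. The longer form TAATTA, in 4.8% of windows, was found in none of these 4, nor was the AP-2 motif GCCNNNGGC, in 13.7% of windows. The E-box CAGCTG, in 13% of windows, matched once in that of Gbx2. The windows also differ in composition, with a GC content of 39.6% and 46.4% in Tfap2d and Tfap2b against 68.0% in Msx1 and 61.6% in Gbx2.

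Across all genes the epithalamus array lay close to the thalamus and to the prethalamus. Pearson's r across the 9812 genes was 0.968 with thalamus replicate 1, 0.962 with replicate 2 and 0.967 with the prethalamus array. Between the thalamus arrays themselves, which share a region label, it was 0.955, and genes are not independent replicates. The epithalamus array lay above both thalamus arrays by any amount in 2914 genes (29.7%), below both in 2446 (24.9%) and between them in 4452 (45.4%). Between the thalamus arrays 747 genes (7.61%) were apart by 1 or more, with replicate 1 higher in 521 and replicate 2 higher in 226. Held against replicate 2 alone the count of higher genes was 348, and against replicate 1 alone 172, where the lower counts were 183 and 155. The genes that passed against both arrays had a median gap between those arrays of 0.37 for the higher and 0.27 for the lower genes, beside 0.31 for all genes.

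**Figure D1:**
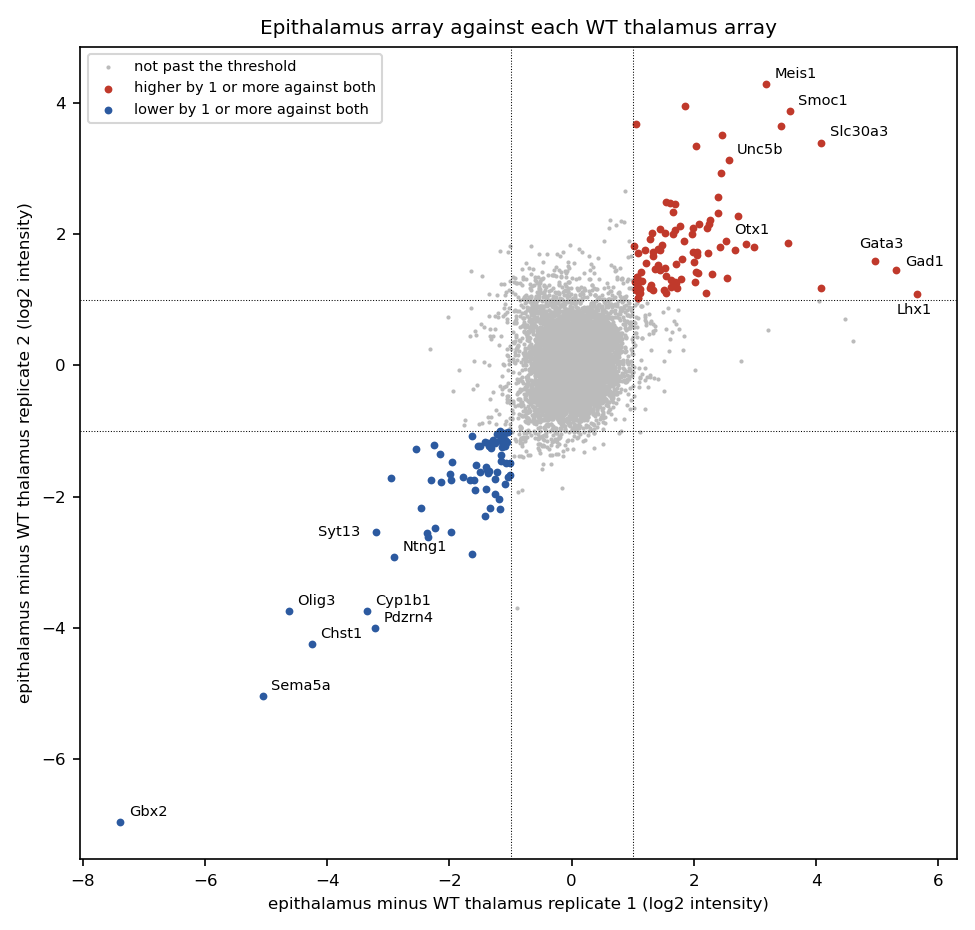
Each point is 1 of 9812 genes, placed by the log2 difference of the epithalamus array from WT thalamus replicate 1 (horizontal) and replicate 2 (vertical), with dotted lines at a difference of 1 in size. Gbx2 stands alone at the lower left, and Gad1, Gata3 and Lhx1 lie at the far right because the thalamus replicates differ in them.

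Of the 93 higher genes, 28 were detected on neither thalamus array, and of the 68 lower genes 12 were not detected on the epithalamus array. For these the dim side gives only a bound, and a fold is printed as at least N-fold, taken between the mean of the bright side and the mean of the dim side, where each dim array counts at the higher of the gene's own signal and the lowest signal of a detected probe on it. Such a fold is a bound for the means, not for each thalamus array singly. Such genes could enter the comparison only by being bright on 1 side. Among the 7890 genes detected on all 3 arrays, 44 were higher (0.558%) and 56 lower (0.71%). The smaller difference reached 2 or more in 15 higher and 12 lower genes. Just inside the threshold lay Syt6 at 1.02 and Efna5 at -1.0, and just outside it Sdsl at 0.98 and Rorb at -0.98. Another probe was compared for 26 of the 161 genes, and 33 of these 35 probes had the same sign, 17 of them past the threshold. The exceptions were both other probes of Elmo1. Other probes of Fgfr2 (0.67) and Pcp4l1 (0.57) were short of the threshold.

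Several transcription factors of pretectum and midbrain were higher on the epithalamus array. Of 13 compared, 9 were past the threshold upwards, beside 0.948% of all genes, and none downwards. But 6 of the 13 were detected on neither thalamus array and 2 on 1 of them, so that these 8 entered through the epithalamus array. Of all 500 genes detected on the epithalamus array and neither thalamus array, 28 (5.6%) were higher. The list was drawn up with earlier results of these data known, so its count is not independent evidence. Of the 5 detected on all 3 arrays (Tfap2d, Ebf1, Ebf2, Ebf3 and Lhx1), 4 were past the threshold upwards and Ebf1 was not. Tfap2b, an AP-2 factor of the dorsal midbrain, read 8.43 on the epithalamus array and was not detected on either thalamus array (5.01 and 4.79), at least 7.69-fold higher, and its other probe differed by 1.04. Its neighbour on chromosome 1, Tfap2d, another AP-2 factor, read 10.56 against 8.10 and 7.05. Meis1, a TALE homeobox gene, read 9.46 against 6.27 and 5.17. All 3 were well clear of both thalamus arrays, and both AP-2 genes were also far above the prethalamus array (5.13 for Tfap2b and 5.28 for Tfap2d), whereas Meis1 read 8.10 there.

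Dmbx1, a paired-type homeobox gene first known from the midbrain, was detected on the epithalamus array alone (6.86 against 4.62 and 4.71, at least 2.59-fold higher). The early B-cell factor genes Ebf2 and Ebf3, which act in newly born neurons, read 8.80 against 7.13 and 6.8, and 12.69 against 10.65 and 11.27. Ebf2 was not detected on the prethalamus array (5.16), and Ebf3 read 8.49 there. Members outside the naming rule, picked after their values were seen, were the dorsal neural tube gene Pax3 (at least 1.53-fold higher) and the POU domain gene Pou4f3 (at least 2.23-fold higher), both detected on the epithalamus array and on neither the thalamus nor the prethalamus arrays. Ebf1, at 0.57, did not reach the threshold, nor did Meis2 and En1, which no thalamus array detected (at least 1.33-fold and 1.04-fold higher). Meis1 was detected on thalamus replicate 1 only. The part that tissue from the neighbouring pretectum plays in these values was not tested.

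Otx1, a homeobox gene of forebrain and midbrain, was higher, at 12.51 on the epithalamus array against 9.98 and 10.61 on the thalamus arrays and 10.65 on the prethalamus array. Its relative Otx2, listed for pineal gland and choroid plexus, read 11.16 against 10.26 and 10.32, below the threshold at 0.84. Zic4, a zinc finger gene of the dorsal neural tube, read 9.36 against 7.33 and 6.02. It also read 9.89 and 9.70 on KO thalamus replicates 1 and 2, above the epithalamus array, and its other probes differed by 0.16, 0.71 and 1.57. Bhlhe23, a basic helix-loop-helix gene, read 9.48 against 7.63 and 5.53, and was detected on thalamus replicate 1 but not on replicate 2.

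**Figure D2:**
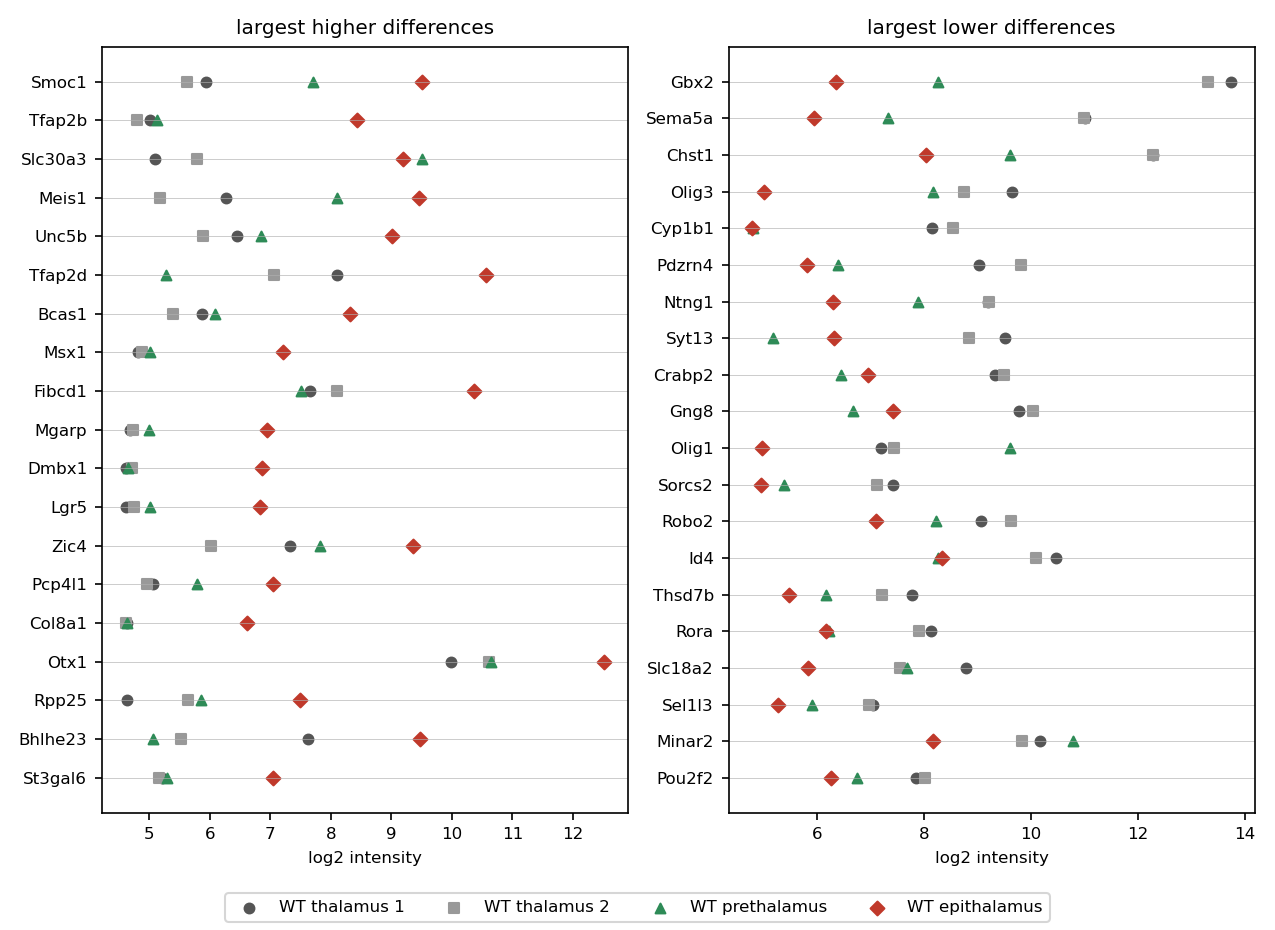
Log2 intensity of the genes with the largest smaller-of-2 differences, 19 of the first 20 higher genes and the first 20 lower genes, on the epithalamus array, both WT thalamus arrays and the prethalamus array of chip 1. The epithalamus symbol lies clear of both thalamus symbols in every line, while prethalamus sits with the thalamus for Tfap2b and Msx1 and beside the epithalamus for Slc30a3, Id4 and Rora.

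Of the 7 roof plate and midline genes compared, Msx1 was the only one past the threshold, at least 3.28-fold higher, and none was lower. Of 2 ligand genes of the dorsal midline picked after their values were seen, Wnt8b lay above both thalamus arrays by 0.50 and Wnt1 was detected on the epithalamus array alone, with a bound of only 1.02-fold. Zic1 and Zic2 lay between the thalamus arrays, which differed from each other by more than 1 in both. Lmx1a, Bmp4, Bmp6, Wnt3a and Rspo2 were not detected on any of the epithalamus, thalamus and prethalamus arrays. No pineal gene of 4 compared was past the threshold. Crx, a homeobox gene of pineal gland and retina, was detected on the epithalamus array alone at 5.40, with 5.15 and 5.08 on the thalamus arrays, while Aanat and Tph1, enzymes of melatonin synthesis, were detected on none.

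Habenular genes showed values in both directions. Nr4a2 (1.61) was higher, and on the prethalamus array it read 6.41. Gng8, a G protein gamma subunit expressed in the habenula, was lower on the epithalamus array (7.42) than on the thalamus arrays (9.77 and 10.04). Etv1, an ETS factor, was lower too, at 6.65 against 8.29 and 7.72, but its other probe differed by only -0.17. The LIM homeobox gene Isl1 (6.28 against 5.35 and 5.32, both not detected) and the axonal adhesion gene Cntn2 (11.19 against 10.50 and 9.70), picked after their values were seen, were above both thalamus arrays by less than the threshold. Isl1 read 12.03 on the prethalamus array. Of the 6 members detected on all 3 arrays, 1 was higher and 2 were lower.

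Genes of the rostral thalamus and of GABAergic neurons were high on the epithalamus array, but the thalamus arrays themselves differed widely in them. Of 7 rostral thalamus and zona limitans genes, 4 were higher, beside 0.948% of all genes, and none was lower. Of the 4 detected on all 3 arrays 2 were higher. This list too was drawn up with earlier results of these data known. Tal2, a basic helix-loop-helix gene of GABAergic precursors, read 11.12 against 8.13 and 9.32. Gata3, a zinc finger selector of GABAergic fate, read 10.15 against 5.18 on replicate 1, where it was not detected, and 8.56 on replicate 2. Helt, a bHLH gene that sets GABAergic fate in the midbrain, was at least 2.44-fold higher.

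Of 8 prethalamic and GABAergic genes, 3 were higher, beside 0.948% of all genes, and none was lower. Only 2 of these 8 were detected on all 3 arrays, both higher. Gad1, which makes GABA, read 10.15 on the epithalamus array, 4.84 and 8.70 on the thalamus arrays and 11.06 on the prethalamus array. Slc32a1, the vesicular GABA transporter gene, read 9.90 against 5.82 and 8.73, with 11.27 on the prethalamus array. Lhx1, a LIM homeobox gene, read 11.05 against 5.39 and 9.96, and 12.04 on the prethalamus array. Replicate 1 lay far below the epithalamus array in all of them, and replicate 2 lay below it by 1.45, 1.17 and 1.09 in that order. Gata2 and Sox14, picked after their values were seen, showed the same split without reaching the threshold against replicate 2 (9.86 against 5.39 and 9.16 for Gata2, and 9.76 against 5.16 and 9.39 for Sox14). The log2 of the summed intensity of the rostral list was 12.53 on the epithalamus array, 9.21 and 11.34 on the thalamus arrays and 10.39 on the prethalamus array. That of the prethalamic and GABAergic list was 12.30, 8.49, 11.16 and 13.61 in the same order. The part that the amount of rostral tissue in each dissection plays in these values was not tested.

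**Figure D3:**
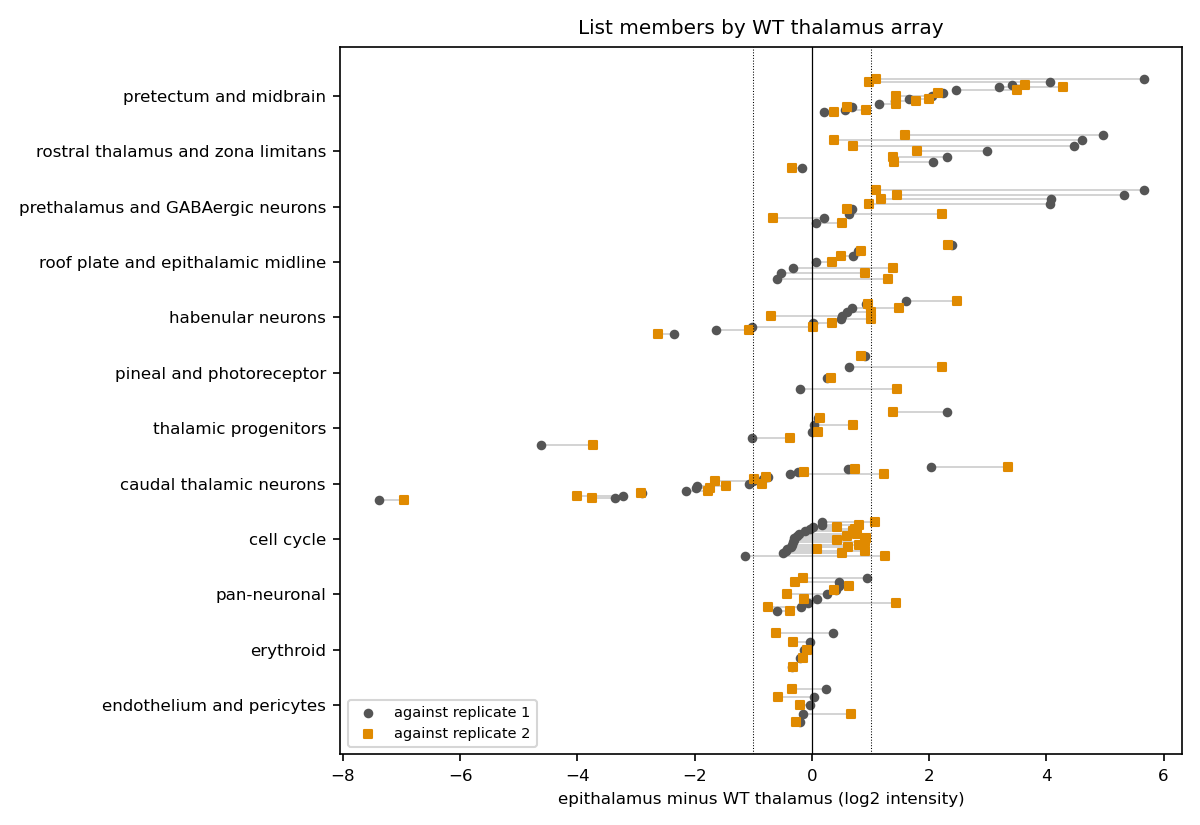
Each pair of symbols is 1 compared gene of the list named at the left, placed by the log2 difference of the epithalamus array from WT thalamus replicate 1 (circle) and replicate 2 (square), with dotted lines at a difference of 1 in size. Pretectum and midbrain genes lie right of 0, though 8 of these 13 were not detected on both thalamus arrays, caudal thalamic genes mostly left, and the rostral and GABAergic genes are drawn out by the gap between the replicates.

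Genes of caudal thalamic neurons were mostly lower on the epithalamus array. Of 15 compared, 8 were past the threshold downwards, beside 0.693% of all genes, and 1, Zic4, upwards. Below both thalamus arrays lay 12 of the 15, beside 24.9% of all genes. The median difference from the mean of the thalamus arrays was -1.34 over the list and 0.031 over all genes. Cyp1b1, Calb2 and Foxp2 were not detected on the epithalamus array, so they entered through the thalamus arrays, where they are high. Of the 12 detected on all 3 arrays, 6 were lower and 1 higher. The list includes genes that earlier results of these data had shown to move in the KO, so its count is not independent evidence of a direction. Beside Gbx2, Cyp1b1, a cytochrome P450 that oxidises retinoids and steroids, was not detected on the epithalamus array (4.79 against 8.15 and 8.54, at least 7.83-fold lower). Pdzrn4, a PDZ and RING domain gene, read 5.82 against 9.03 and 9.82. Ntng1, the axonal membrane protein netrin-G1, read 6.29 against 9.20 and 9.21, nearly the same value on both thalamus arrays, but its other probe was short of the threshold at -0.72.

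Id4, which blocks DNA binding by bHLH factors, read 8.33 against 10.47 and 10.10. The nuclear receptor gene Rora read 6.16 against 8.13 and 7.90, and the adhesion gene Kirrel3 read 6.71 against 8.66 and 8.18. Calb2, which encodes calretinin, sat just inside the threshold and was not detected on the epithalamus array (4.85 against 5.86 and 6.51, at least 1.75-fold lower). Members below the threshold, picked after their values were seen, included the vesicular glutamate transporter gene Slc17a6 (10.78 against 11.53 and 11.56) and the LIM homeobox gene Lhx9 (9.14 against 10.21 and 9.98), both well detected on the epithalamus array. The Wnt effector gene Lef1 was above both (7.89 against 7.27 and 7.16), and Prox1 read 7.54 against 7.77 and 7.68.

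Among progenitor genes, Olig3 was the one past the threshold downwards. It read 9.64 and 8.75 on the thalamus arrays and 8.17 on the prethalamus array and was not detected on the epithalamus array (5.01), at least 14.2-fold lower. Olig1, a related gene of oligodendrocyte and neuron precursors, was not detected there either, at least 3.84-fold lower, and read 9.62 on the prethalamus array. The proneural gene Neurog2 (10.08 against 11.11 and 10.46) and the homeobox gene Dbx1 (10.46 against 10.42 and 9.76), picked after their values were seen, were detected on all 3 arrays.

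Guidance and adhesion genes gave a few wide differences among many small ones. Sema5a, a transmembrane semaphorin, had the second largest difference of all, at 5.95 on the epithalamus array against 11.01 and 10.98 on the thalamus arrays, with 7.32 on the prethalamus array. The plexin gene Plxna2, a semaphorin receptor, read 8.57 against 9.74 and 9.70, and none of the other 15 compared semaphorins and receptors was past the threshold. The Slit receptor gene Robo2 was lower by 1.97, with its 3 other probes past the threshold in the same direction. Unc5b, a netrin receptor, was higher, at 9.01 against 6.45 and 5.89. Of 12 ephrins and Eph receptors only Efna5 was past the threshold (-1.0), and of 8 cadherins and protocadherins only Pcdh19, which read 6.78 on the epithalamus array, 5.5 and 5.60 on the thalamus arrays (not detected on replicate 2) and 7.95 on the prethalamus array.

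Matrix, glycan and retinoid genes differed in both directions. Chst1, a sulfotransferase that acts on keratan sulfate, read 8.04 on the epithalamus array and 12.29 and 12.28 on the thalamus arrays. Hs6st2 and Hs3st1, which sulfate heparan sulfate at different positions, were lower, Hs6st2 by 1.33 and Hs3st1, not detected on the epithalamus array, at least 2.27-fold. Smoc1 and the type II collagen gene Col2a1 (8.0 against 6.34 and 5.67) were the higher members among the 15 compared. The retinoic acid binding proteins went opposite ways: Crabp1 read 7.66 against 5.61 and 5.98, and Crabp2 6.95 against 9.32 and 9.50.

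Genes of signalling pathways mostly stayed inside the threshold. Among 13 BMP pathway genes, Id4 was lower and none was higher. Of 23 Wnt pathway genes, the target gene Sp5 was higher (8.99 against 7.46 and 7.51) and none was lower. The FGF receptor gene Fgfr2 (11.03 against 9.70 and 9.89) and the ligand gene Fgf15 (8.70 against 7.64 and 5.03) were the higher ones among 6 FGF genes, and Fgf15 was detected on thalamus replicate 1 but not on replicate 2. The hedgehog effector gene Gli3 was higher by 1.32, and the Notch target gene Hes5 by 1.1, each as the only one past the threshold on lists of 5 and 13. Lgr5, a receptor for R-spondins, was detected on the epithalamus array alone, at least 2.54-fold higher.

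Other large differences came from genes outside these groups. Slc30a3, which loads zinc into synaptic vesicles, read 9.18 on the epithalamus array against 5.10 and 5.79, and 9.50 on the prethalamus array. Bcas1 (8.32 against 5.87 and 5.40) and Fibcd1, a membrane receptor for acetylated compounds (10.37 against 7.65 and 8.10), were high on the epithalamus array alone of the 4 WT arrays of chip 1. The mitochondrial protein gene Mgarp was at least 2.74-fold higher, the sialyltransferase gene St3gal6 2.95-fold, Pcp4l1 2.94-fold and the collagen gene Col8a1 2.18-fold, all as lower bounds. Rpp25, a subunit of RNase P, was higher by 1.85. On the lower side stood the synaptotagmin gene Syt13 (6.31 against 9.51 and 8.85), the sorting receptor gene Sorcs2 (at least 3.73-fold lower) and the vesicular monoamine transporter gene Slc18a2 (5.82 against 8.79 and 7.55). Thsd7b, Minar2 and the POU domain gene Pou2f2 stood at -1.74, -1.65 and -1.60, and Sel1l3, not detected on the epithalamus array, was at least 3.11-fold lower.

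Only a few of the genes past the threshold lie next to each other. In the order of protein-coding genes of the GRCm38.p6 table, 138 of the 161 could be placed, and 3 pairs were direct neighbours, each with both genes in the same direction. Tfap2d and Tfap2b on chromosome 1 and Adgrb2 and Col16a1 on chromosome 4 were higher, and Chst1 and Syt13 on chromosome 2 were lower.

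Markers of other tissues differed little. No gene of the erythroid (5 compared), endothelial (5), meningeal (3), choroid plexus (2), telencephalic (1) or hypothalamic (1) lists was past the threshold, and surface ectoderm and microglia had no gene to compare. The log2 summed intensity of the erythroid list was 13.92 on the epithalamus array against 13.93 and 14.26, and that of the endothelial list 9.40 against 9.39 and 9.64. The choroid plexus markers Ttr, Kl, Clic6, Folr1 and Aqp1 and the telencephalic markers Emx1 and Emx2 were not detected on the epithalamus array. Of 16 cell cycle genes none was past the threshold and 13 lay between the thalamus arrays, whose summed levels were 13.20 and 12.27 beside 12.93 for the epithalamus array. No pan-neuronal gene of 9 was past the threshold. Detected probes made up 35.13% on the epithalamus array, 35.29% and 30.73% on thalamus replicates 1 and 2, and 36.04% on the prethalamus array, so replicate 2 had the fewest.

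The prethalamus array of the same chip offers values from another region next to the thalamus. Measured in the same way it was higher than both thalamus arrays in 86 genes (0.876%) and lower in 95 (0.968%), a comparison that shares the thalamus arrays with that of the epithalamus. The epithalamus array read higher than every other array of chip 1, KO thalamus included, in 78 of its 93 higher genes. It read lower than every other in 45 of its 68 lower genes. Both counts are partly fixed, since the differences from WT thalamus chose the genes, and the share over all genes was not counted. The prethalamus array was itself 1 or more below both thalamus arrays in 25 of the 68, among them Gbx2 (8.27), Cyp1b1 (4.81, not detected), Chst1 (9.61), Sema5a, Pdzrn4, Syt13, Crabp2 and Gng8, and 1 or more above both in 18 of the 93 higher genes. Slc30a3, Zic4, Gad1, Slc32a1, Lhx1 and Pcdh19 were among the higher genes that another array exceeded, by values given above.

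Whether the genes that set the epithalamus array apart also changed in the KO thalamus was read on chip 2, whose arrays share no sample with the comparison. There KO replicates 3 and 4 were compared with WT replicates 3 and 4 with limma over 21369 detected probes, of which 21 were higher (0.0983%) and 91 lower (0.426%) in the KO at an adjusted p under 0.05. The split depends on the scaling, at 74 higher and 132 lower without background correction, 62 and 121 with an offset of 50, and 86 and 130 in the authors' deposited log2 values. The result also rests on single arrays: without KO replicate 3, 0 probes passed (1022 higher and 1069 lower at an unadjusted p under 0.05), while without WT replicate 3, 366 were higher and 323 lower.

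Gbx2 itself fell on chip 2, with 13.76 and 14.05 on the KO arrays against 15.94 and 15.73 on the WT arrays (log2 fold change -1.93, SE 0.29, limma adjusted p = 0.0438). It was thus still bright in the KO, as it was on KO replicates 1 and 2 of chip 1 (13.04 and 12.77), far above the 6.35 of the epithalamus array. Whether the Gbx2 probe lies in the deleted stretch is not known here.

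Of the 68 genes lower on the epithalamus array, all had a tested probe on chip 2, and 21 fell in the KO by limma at an adjusted p under 0.05, while none rose. Over the 8722 genes compared on both chips 39 fell (0.447%) and 8 rose (0.0917%). The fold change was below 0 in 62 of the 68, with a median of -1.34 beside -0.06 over all genes. The largest fall was that of Cyp1b1, with 5.40 and 5.64 on the KO arrays, where it was not detected, against 11.02 and 12.07 on the WT arrays, at least 52.6-fold lower (limma adjusted p = 0.00419). Calb2 was not detected on the KO arrays either (4.98 and 5.07 against 9.73 and 9.83, at least 15.5-fold lower). Kirrel3 read 6.81 and 6.8 against 10.87 and 11.25, a fall of 4.26 (SE 0.30). KO and WT arrays did not overlap in any of these. With 2 arrays per genotype such a separation says little by itself, and its share over all probes was not counted.

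The other caudal thalamic genes that fell were Pdzrn4 (log2 fold change -3.99, SE 0.51), Rora (-3.78, SE 0.57), Id4 (-3.59, SE 0.29) and Ntng1 (-3.47, SE 0.41), with limma adjusted p values from 0.00604 to 0.0431. Since the caudal list includes genes already known from these data to move in the KO, their fall is not independent evidence about caudal genes. Chst1 fell by 2.74 and stayed bright in the KO (12.04 and 12.94 against 15.46 and 15.00), and the other sulfotransferase gene Hs6st2 fell by 3.48. Robo2 (-2.58), the transcription coregulator gene Sertad4 (-3.29) and the phosphatase gene Ppm1h (-3.39) fell as well, as did the phosphatase gene Ptprt, which was not detected on the KO arrays (at least 5.12-fold lower). So did Thsd7b (-3.31, detected on 1 KO array), Gas7 (-2.53), the kinase gene Sgk1 (-2.23), the integrin-associated gene Cd47 (-2.08) and the sorting receptor gene Sorl1 (-1.89). The remaining 2 of the 21 carry clone names. Without KO replicate 3 none of the 68 passed, with 39 lower at an unadjusted p under 0.05. Leaving out another array gave 21 to 28, and with the excluded arrays added 0 passed, with 19 lower unadjusted.

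Several of the widest epithalamic differences did not go with a change that passed in the KO. Sema5a, lower by 5.03 on the epithalamus array, read 13.41 and 13.91 on the KO arrays against 14.16 and 13.71 on the WT arrays (-0.27, SE 0.33, limma adjusted p = 0.706). Olig3 read 11.27 and 10.46 against 10.04 and 10.08 (0.80, SE 0.35, limma adjusted p = 0.28). The values were -0.55 (SE 0.48) for Gng8, -0.96 (SE 0.47) for Crabp2 and 0.82 (SE 0.32) for Olig1. Syt13 (-2.43, SE 0.45, limma adjusted p = 0.072) and Slc18a2 (-2.97, SE 0.57, limma adjusted p = 0.0806) did not pass.

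**Figure D4:**
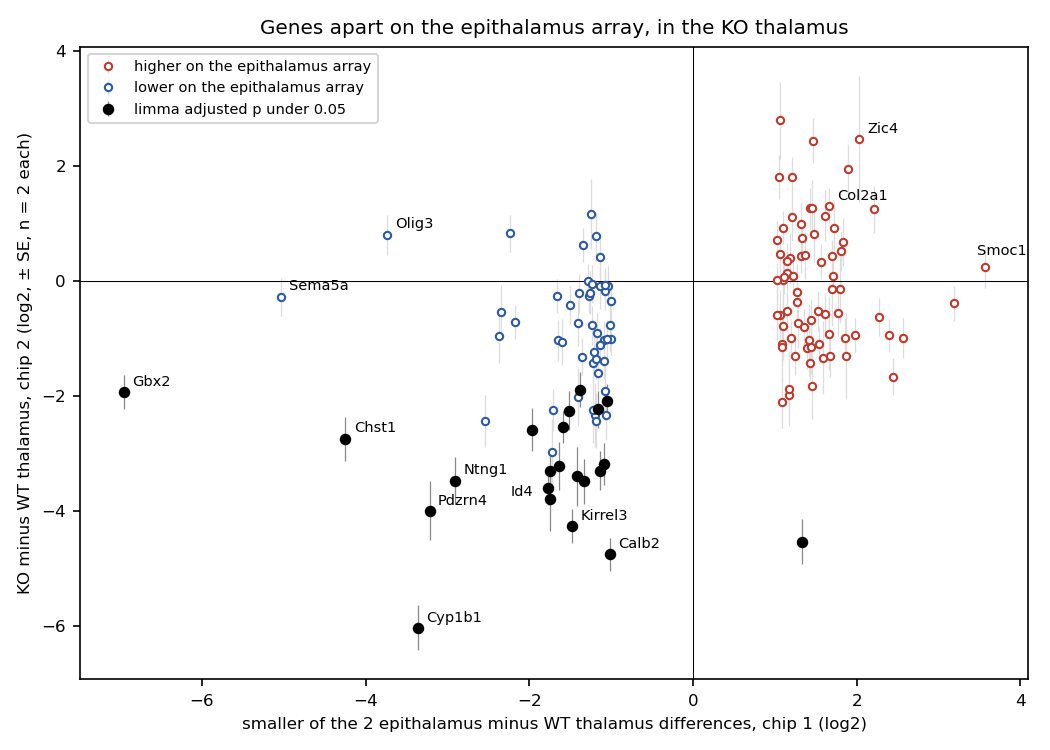
Each point is 1 gene past the threshold on the epithalamus array with a tested probe on chip 2, placed by its smaller log2 difference on chip 1 (horizontal) and its KO minus WT log2 fold change on chip 2 with SE (vertical, n = 2 arrays per genotype), with undetected probes at their measured values. Filled points pass the limma threshold, and all but 1 lie in the lower left, while the higher genes scatter around 0.

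Of the 93 genes higher on the epithalamus array, 73 had a tested probe on chip 2, and none rose in the KO at an adjusted p under 0.05 by limma, while 1, of a predicted name, fell. At an unadjusted p under 0.05 by limma, 14 of the 73 were higher and 19 lower, and the median was -0.19. Over the 8722 genes compared on both chips, 661 were higher and 776 lower unadjusted, with a median of -0.06. Otx1 read 14.44 and 13.12 on the KO arrays against 11.74 and 11.94 (1.94, SE 0.44, limma adjusted p = 0.102). Fgf15 stood at 2.79 (SE 0.67, limma adjusted p = 0.109), Col2a1 at 1.30 (SE 0.30, limma adjusted p = 0.107), Ebf3 at 1.26 (SE 0.36) and Nr4a2 at 1.13 (SE 0.44). In each of these both KO arrays read above both WT arrays, but the share of all probes with such a separation was not counted. Zic4 was at 2.46 (SE 1.1), but its WT arrays read 10.78 and 6.63, so that WT replicate 3 lay beside the KO arrays (11.45 and 10.88).

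Other higher genes had values near or below 0 on chip 2. Smoc1 stood at 0.24 (SE 0.35) and Meis1 at -0.39 (SE 0.30). Values were below 0 for Bcas1 (-1.66, SE 0.32, limma adjusted p = 0.0774), Unc5b (-0.99, SE 0.35), Gad1 (-1.82, SE 0.59) and Slc32a1 (-1.87, SE 0.65). Among genes with no tested probe, Tfap2d read 4.83 and 4.81 on the KO arrays and 4.97 and 6.38 on the WT arrays, detected on 1 WT array.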

How the data were processed

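RNA was extracted with TRIzol and columns and amplified to biotin-labelled cRNA, per the labels. The deposited tables give a bead intensity per probe on a linear scale, per the file headers without normalization on chip 2; the header of chip 1 does not say. The deposited detection columns hold a fraction near 1 for bright probes, and 1 minus the fraction served as detection p. The authors' deposited log2 values, with a normalization not given in the sources used here, served as an alternative. BeadStudio, GenomeStudio and lumi are named in the submitters' processing notes, without their roles.

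Chip 1 holds 46147 probes and chip 2 45281. Names came from a deposited table of 31459 joined probes, of which 31448 were matched by their signals and 11 left out. They were updated through a RefSeq gene table of GRCm38.p6 used for names and neighbours (19530 probes by accession, 2795 by symbol, 2314 by synonym, 6809 left as filed), giving 23388 genes. The 14699 unnamed chip 1 probes were only counted: of 4474 compared, 35 were higher and 35 lower (0.782% each).

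Signals of the 6 arrays of chip 1 went through limma's neqc (limma 3.58.1, R 4.3.3), which fits normexp to the detection p, adds 16 to each value, quantile-normalizes and takes log2. Probes detected at p under 0.05 on the epithalamus array or both WT thalamus arrays were compared, 1 probe per gene by the highest mean over the 3 arrays. On chip 2, neqc ran on 4 arrays, and probes detected on at least 2 were tested with limma's lmFit and eBayes, two-sided, with Benjamini-Hochberg adjustment over all 21369 probes. These p-values measure the spread between arrays, whose number limits the precision; the code was tested on simulated data. Signal over background limits dim genes, with maximum signals on chip 1 of 37004.8 to 51355.8.

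The 34 gene lists, the comparison and the naming rule were chosen with earlier results of these data known. The rule names Gbx2, Msx1, Nr4a2 and Smoc1, the 20 largest differences in each direction, up to 6 members past the threshold per list (or the 2 largest), and genes past the threshold on chip 2, and passes over clone names. Some genes that the rule or the lists name are not reported here. Alternatives changed the background correction, normalization, filter, threshold and arrays. Sets were not tested for enrichment.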

Additional observations from a re-analysis of the deposited data

How the results depend on the processing

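Without background correction 57 genes were higher and 36 lower on the epithalamus array, with an offset of 50 the counts were 61 and 38, at a difference of 1.5 or more 41 and 24, and in the authors' deposited log2 values 63 and 40. With detection on all 3 arrays 44 were higher. Leaving out 1 thalamus array gave 172 to 348 higher and 155 to 183 lower genes, since a single array then sets the rule. The list counts, alternatives added after seeing the data, changed by more than 1.5-fold in 5 cases. With detection on all 3 arrays 4 pretectal and 2 rostral genes were higher, and at 1.5 or more 5 pretectal, 2 rostral and 0 GABAergic ones. Smaller changes were not counted, such as pretectal genes from 9 to 7 without background correction, or rostral genes from 4 to 6 without thalamus replicate 2. For the 90 named genes, 955 differences were recomputed, of which 697 moved by less than the SD of the thalamus arrays and 258 by more. The 697 include the change of threshold, which leaves every difference as it was. Changes of filter only choose the probes, so most values stay the same there too. A change of sign was looked for only in the 763 that belong to genes past the threshold, and 0 were found. Such a change could not occur with the threshold changed or 1 thalamus array left out, since these genes differed in the same direction from both arrays. A fall to a difference of 0 was not counted as such a change.

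On chip 2 more probes were higher in the KO without background correction (74), with an offset of 50 (62) and in the deposited log2 values (86). With detection on all 4 arrays 8 were higher and 33 lower, and 12 of the genes lower on the epithalamus array fell. With no filter on dim probes limma called 0 higher, 0 lower and 0 of these genes (2645 higher and 2713 lower at an unadjusted p under 0.05), and with the 2 excluded arrays 2, 2 and 0 (505 and 509 unadjusted). Leaving out 1 array gave 0 to 366 higher, 0 to 323 lower and 0 to 28 of these genes, the lone array of a genotype being assumed to vary like the others. The labels give both genotypes replicates 3 and 4, but nothing ties the numbers to a litter or day, and deviations of same-numbered arrays correlated at 0.151 over only 2 pairs. With the replicate number as a block, 1264 probes were higher, 1077 lower and 41 of these genes fell; the cause of these moves was not tested. The arrays' number and the low signal of dim probes limit what can be seen.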
